A study of Mus musculus with 6 samples.

Results

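Translation initiation and elongation factors are the proteins that place the ribosome on the start codon of a messenger RNA and then move it along. Their genes were taken from the table by name: symbols beginning with Eif1 to Eif6, or with Eef1 or Eef2. The X-linked and Y-linked copies of the eIF2 gamma subunit (Eif2s3x and Eif2s3y) and the kinases of the family (the Eif2ak genes and Eef2k) were set aside. The name pattern matched 62 of the 23793 loci, 7 were set aside, and 55 remained. Of these, 54 belonged to the 13612 loci that were tested, which needed 1 FPKM or more in 3 or more of the 6 libraries. FPKM is a level scaled to transcript length and to the size of the library, so that levels of different genes can be set side by side. The exception, Eif4e1b, an eIF4E relative of the germ line, lay between 0.0216 and 0.0659 FPKM.

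RNA came from the whole cerebellum of mice at postnatal day 0, in 3 libraries per group. The controls were Zeb2 f/+; hGFAP-cre and the mutants (cKO) Zeb2 f/f; hGFAP-cre, so both groups carried Cre and at least 1 floxed allele of Zeb2, a gene for a zinc finger transcription factor. No group without Cre was analysed here. The transgene uses a human GFAP promoter, active in neural progenitors as well as glia, and a whole-tissue library also holds cells that never expressed Cre. Whether the libraries stem from different animals is not in the labels. The p-values therefore rest on library-to-library spread, which may be technical.

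As background, initiation starts with eIF2, which carries the initiator tRNA as a complex with GTP, and with eIF1, eIF1A, eIF3 and eIF5 on the small ribosomal subunit. The cap-binding complex eIF4F brings the messenger RNA, eIF5B joins the large subunit, and eIF2B recharges eIF2 with GTP. In elongation eEF1A delivers each aminoacyl tRNA, eEF1B recharges eEF1A, eEF2 moves the ribosome on by a codon, and eIF5A helps at stalling sequences. Neurons replace eEF1A1 with its close relative eEF1A2 as they mature.

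Facts of the libraries come first. Zeb2 lay at 11.4, 9.52 and 7.995 FPKM in control libraries, against 6.19, 3.89 and 5.81 FPKM in cKO libraries, without passing (limma, adjusted p = 0.107). Xist was between 0.331 and 0.515 FPKM in control libraries, against 142 to 147 FPKM in cKO libraries, and Eif2s3y was at most 0.108 FPKM in cKO, so every comparison below is also one between sexes, and the 2 cannot be told apart. Across the tested loci, log2 values of library pairs had a Pearson r between 0.952 and 0.959 inside a group, and between 0.942 and 0.957 for a control with a cKO library. The library cKO 3 stood apart, with a higher r to control 3 (0.9565) than to cKO 1 (0.9519) or cKO 2 (0.9522). Its r to control 1 (0.9526) was slightly above these 2 as well, and that to control 2 (0.9496) was below them. By the numbering of the samples, control 3 and cKO 3 form a later deposit than the others, control 1 included. The part of the deposit in these r values was not tested. The library cKO 1 had the lowest sum, 497542 FPKM, against 519248 to 524474 FPKM in the other 5. All 12 cerebellar markers on the list were measured, with summed levels of 1082 to 1158 FPKM in control and 1005 to 1060 FPKM in cKO libraries, which did not overlap. None passed (limma). Before adjustment 4 had a p under 0.05 with lower means in cKO (Gdf10, Ptf1a, Atoh1 and Pax6, log2 fold changes -1.26, -0.88, -0.45 and -0.34) and 1 with a higher mean (En1, 0.27). In addition 7 of 7 genes of cycling cells had lower means in cKO, 3 of which passed (Aurkb, Mcm4 and Top2a), with summed levels of 301 to 339 FPKM in control libraries, against 230 to 241 FPKM in cKO libraries. Summed neuron markers overlapped between the groups (1973 to 2056 and 1956 to 2233 FPKM). All 6 neuron markers had higher means in cKO, with a median log2 fold change of 0.035, and none passed. Markers of microglia summed to 29.1 to 30.3 FPKM in control libraries, against 40.8 to 43.7 FPKM in cKO libraries. All 6 had higher means in cKO, and 1 of them, Csf1r, passed (limma adjusted p = 0.0483). Markers of meningeal fibroblasts (5.50 to 25.0 and 11.9 to 56.7 FPKM), choroid plexus (18.2 to 26.4 and 12.3 to 34.6 FPKM) and red cells (6.55 to 26.04 and 12.2 to 13.8 FPKM) overlapped in sum. All 6 fibroblast markers had higher means in cKO, and none passed. Of the red cell loci 1, named for Hba-a1, passed (limma adjusted p = 0.0177), at 0 FPKM in all controls and 1.15 to 2.14 FPKM in cKO. The 3 other tested red cell loci, among them another for Hba-a1, had lower means in cKO. No marker of any list was at 0 in all libraries. The part of these cell types in the values below was not tested. In whole tissue, fewer cells of a type and less RNA per cell cannot be told apart.

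None of the 54 tested factor genes passed an adjusted p of 0.05 between cKO and control (limma, Benjamini-Hochberg adjustment over all tested loci), in either direction. Of all tested loci 0.573% passed, 0.242% as higher and 0.331% as lower in cKO. With loci of small RNAs left out of the fit 2.44% of all loci passed, and with a robust variance 2.47%, and still 0 factors. The smallest adjusted p among the factors was 0.133, for Eif4e3. Before adjustment, 5 factors had a p under 0.05, 4 of them lower in cKO (Eif4e3, Eif4ebp1, Eif2a and Eif2b1) and 1 higher (Eef1a2), whereas 17.6% of all tested loci did (9.79% lower and 7.82% higher). Differences were small: 3 of 54 (5.56%) had a log2 fold change beyond 0.2 in either direction, as had 17.5% of all tested loci. The 95% intervals of the differences were not adjusted for the number of genes. For all 54 they lay between -0.5 and 0.5 on the log2(FPKM + 1) scale, as for 87.3% of all tested loci. These limits are 70.7 to 141% of the control value of FPKM + 1, and a wider span of FPKM itself for genes of low level. Spread between libraries of a group was small, with a median coefficient of variation of 4.87% in the controls and 4.78% in cKO (n = 54 factors, 3 libraries each).

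The small differences pointed mostly 1 way. Of the 54 factors, 48 had a log2 fold change below 0, with a median of -0.08, against a median of -0.0095 over all tested loci, of which 53% lay below 0. By library, the median factor lay at 0.0093, 0.026 and -0.029 log2 units from its control mean in controls 1 to 3, and at -0.11, -0.052 and -0.063 in cKO 1 to 3. The medians of the 2 groups thus did not overlap. Over all tested loci the medians did not overlap either, in the same direction but closer to 0. They were 0.0059, -0.0025 and -0.0024 in controls 1 to 3, and -0.014, -0.0060 and -0.0090 in cKO 1 to 3. These 54 values share the same 6 libraries and their scaling, so they are not independent observations, and no test was made over them. The groups were fully apart for 12 factors that were lower in cKO and 1 that was higher, which is 24.1% of the factors against 23.9% of all tested loci. In the lower direction alone the background was 13.6%, and in the higher direction 10.3%. The library cKO 1 was the lowest of the cKO libraries for 32 of 54 factors (59.3%), against 35.6% of all tested loci. Without cKO 1 the median over the factors was -0.062, and without cKO 3 it was -0.086. The libraries form 2 sets by the spacing of their lowest values. Within the second, which holds controls 2 and 3 with cKO 1 and 2, the median was -0.093, while the first holds 1 library per group.

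**Figure D1:**
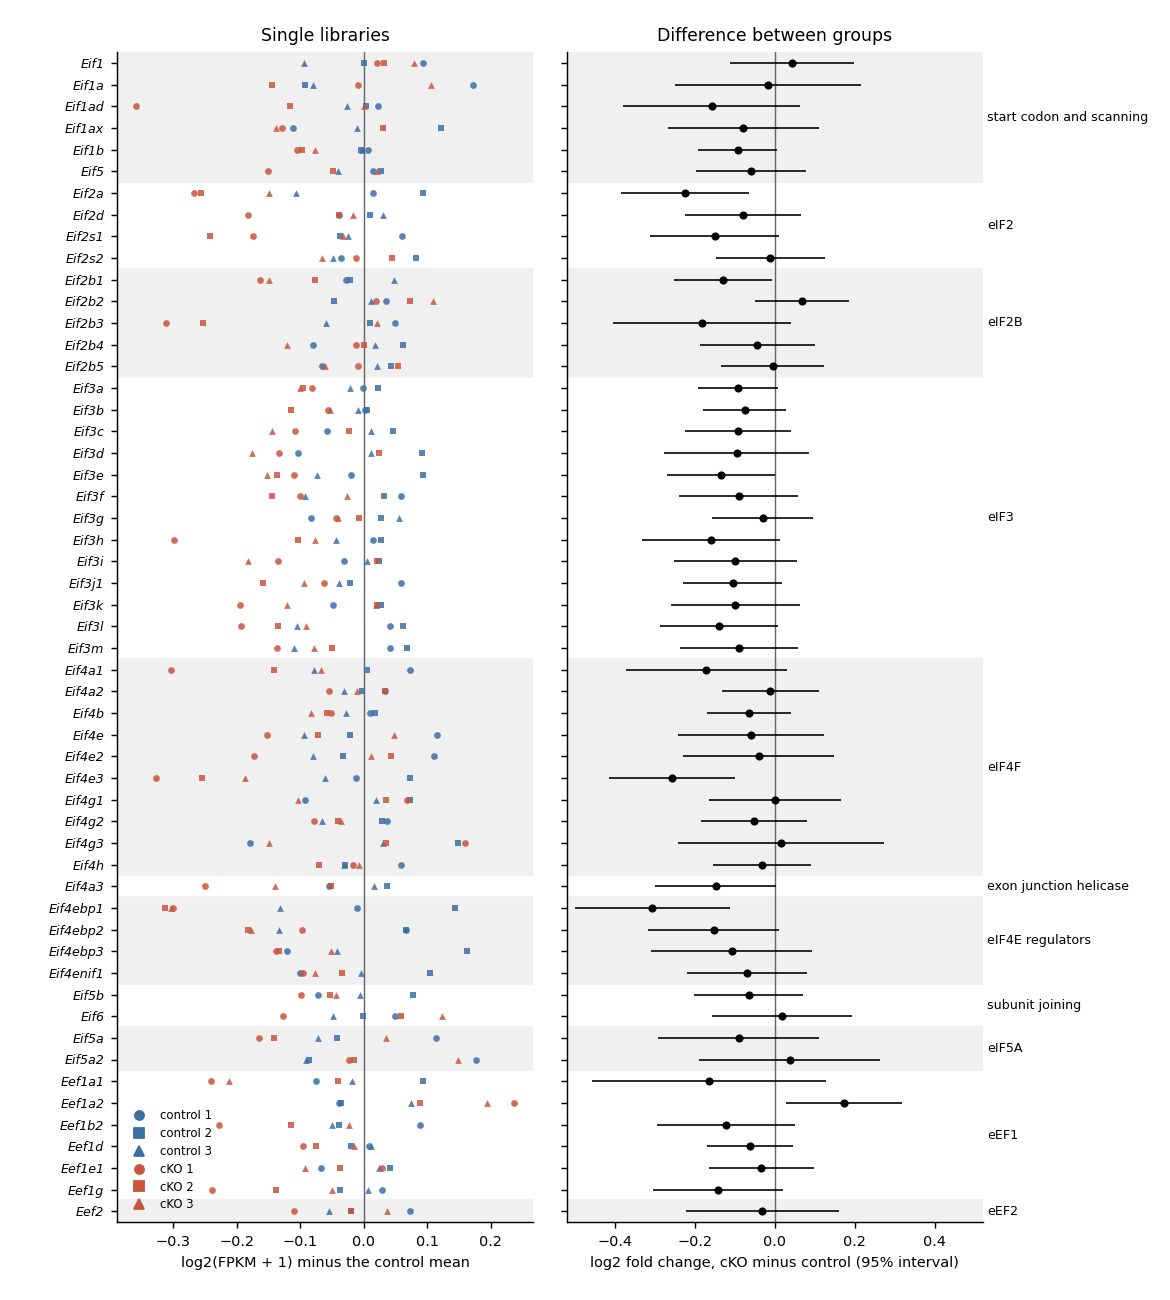
Left, log2(FPKM + 1) of each of the 54 tested factor genes in each library, minus the mean of the 3 controls. Right, the log2 fold change of cKO minus control with its 95% interval from limma. Grey bands separate role groups. 48 of the 54 points on the right lie below 0, and all intervals stay between -0.5 and 0.5.

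In amount, the factors ranked high in the cerebellum at birth. Their median mean level was at the 89.9th percentile of the tested loci. The 55 genes summed to 8878, 9205 and 8745 FPKM in controls 1 to 3 and to 7947, 8620 and 8341 FPKM in cKO 1 to 3. That was 1.69, 1.76 and 1.68% of all FPKM in the controls and 1.597, 1.65 and 1.61% in cKO, with no overlap between the groups. A single gene, Eef1a1, made up 35.6 to 39.9% of the factor sum. Without Eef1a1 the sums were 5346 to 5613 FPKM in control libraries, against 5034 to 5370 FPKM in cKO libraries, which overlapped. Level and difference were hardly related across the 54 factors (Pearson r = 0.12 of log2 level against log2 fold change, all from the same libraries).

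**Figure D2:**
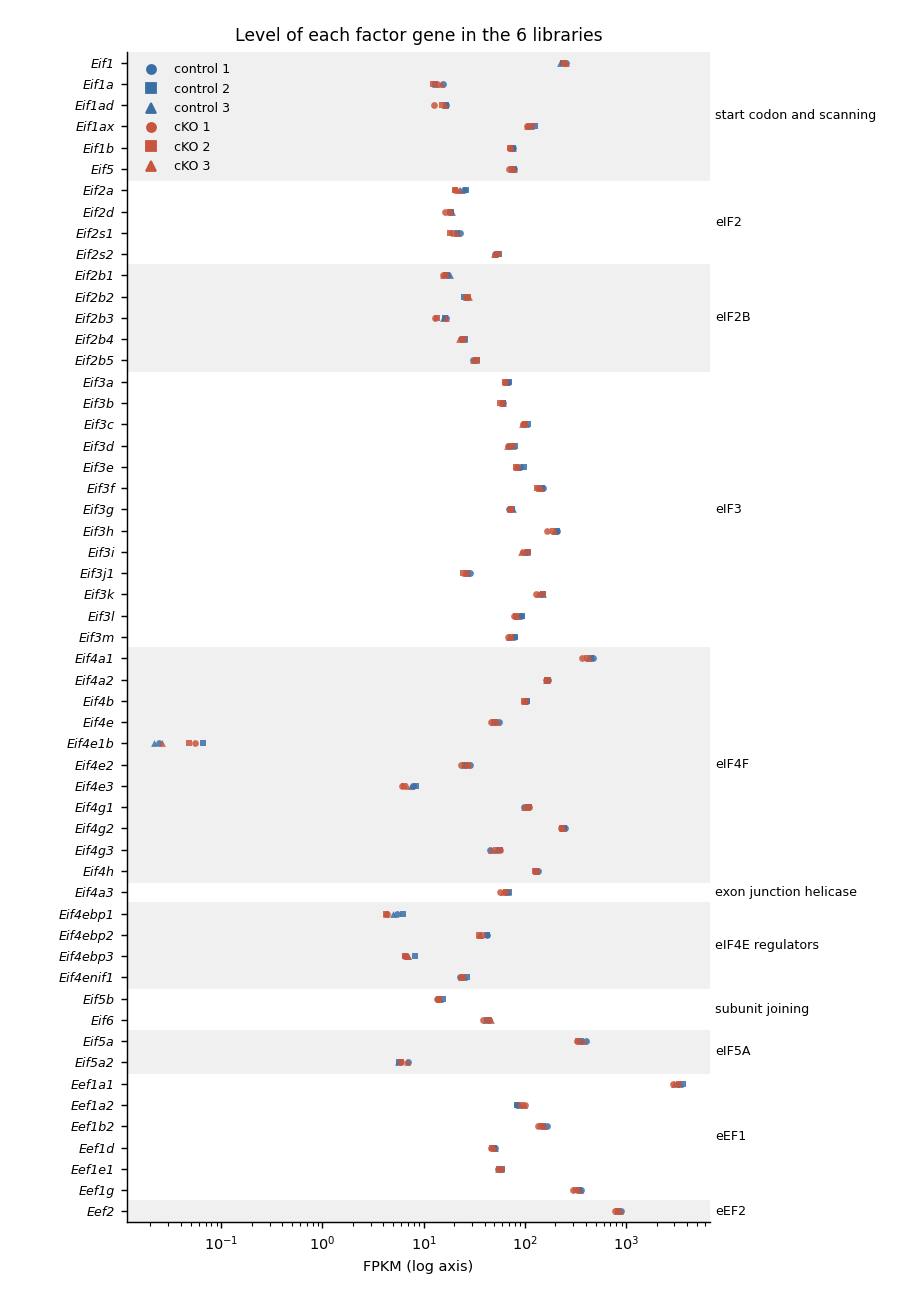
FPKM of the 55 factor genes in each of the 6 libraries on a log axis, grouped by role. The points of a gene lie close together for the 54 tested genes, while those of Eif4e1b scatter from 0.0216 to 0.0659 FPKM, and the genes span from there to Eef1a1, at 2913 FPKM or more.

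eIF3, the large scaffold that keeps the ribosomal subunits apart and links them to eIF4F, had no gene that passed. All 13 of its measured subunit genes had log2 fold changes below 0, from -0.16 (Eif3h) to -0.03 (Eif3g), with a median of -0.10. By library the median eIF3 gene lay at -0.00054, 0.028 and -0.022 in controls 1 to 3 and at -0.11, -0.096 and -0.094 in cKO 1 to 3, so the 3 cKO libraries were close together and below every control. All 13 lay under their control mean in cKO 1 and in cKO 3, and 10 did in cKO 2. Their levels ran from 26.4 FPKM for Eif3j1, a loosely bound subunit, to 195 FPKM for Eif3h over all 6 libraries.

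Eif3h (GRCm38 chromosome 15, 51786558 to 51865523, minus strand) lay at 208, 210 and 200 FPKM in control libraries, against 167, 191 and 195 FPKM in cKO libraries. Every cKO value was below every control value, with cKO 1 farthest down. The log2 fold change was -0.16 (SE 0.07, limma adjusted p = 0.320), with 206 ± 5.41 and 185 ± 15.2 FPKM (SD, n = 3 each). Without cKO 1 it was -0.090. Eif3a, the core subunit on which the complex is built, was nearly constant within groups, at 67.9 ± 1.05 and 63.6 ± 0.427 FPKM. Eif3b, another core subunit, stood at 61.1 ± 0.324 and 58.0 ± 1.41 FPKM. Neither passed (limma adjusted p = 0.315 and 0.425). In 5 of the 13 subunit genes (Eif3a, Eif3b, Eif3e, Eif3h and Eif3j1) the groups did not overlap, and all 5 had lower values in cKO, which is 38.5% of the subunit genes. Of all tested loci 13.6% did not overlap with lower values in cKO, and 23.9% in either direction.

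Among the eIF2 genes, Eif2s1, the alpha subunit that stress kinases phosphorylate, was at 21.7 ± 0.842 FPKM in control libraries, against 19.5 ± 1.54 FPKM in cKO libraries (SD, n = 3 each). Eif2s2, the beta subunit, was at 52.1 ± 2.69 and 51.7 ± 2.03 FPKM, a log2 fold change of -0.01 with an interval from -0.15 to 0.12. Eif2a, a separate protein that can bring initiator tRNA without eIF2 (GRCm38 chromosome 3, 58525821 to 58557501, plus strand), had 24.9, 26.3 and 22.8 FPKM in control libraries, against 20.3, 20.5 and 22.1 FPKM in cKO libraries. The groups did not overlap, the nearest values being control 3 and cKO 3. Its log2 fold change was -0.22 (SE 0.07), with a p of 0.013 before and 0.176 after adjustment (limma). All 4 genes of this group, Eif2d included, were below 0, with a median of -0.11.

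The gamma subunit of eIF2 is encoded by Eif2s3x and, in males, also by Eif2s3y, which were set aside because they follow sex. Eif2s3x was at 75.5, 67.1 and 65.1 FPKM in control libraries, against 97.2, 95.5 and 102.7 FPKM in cKO libraries and passed (log2 fold change 0.50, limma adjusted p = 0.0385). Eif2s3y was at 34.4, 35.8 and 37.2 FPKM in the controls. Summed over both copies the gamma subunit had 110.0, 102.9 and 102.3 FPKM in control libraries, against 97.2, 95.6 and 102.8 FPKM in cKO libraries, and the groups overlapped. The means were 105 ± 4.29 and 98.5 ± 3.76 FPKM (SD, n = 3 each, exact two-sided permutation test, p = 0.2).

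eIF2B, the exchange factor of eIF2, is a complex of 5 different subunits, whose genes lay between 15.2 (Eif2b3) and 32.3 FPKM (Eif2b5). Eif2b1, the alpha subunit that senses phosphorylated eIF2 (GRCm38 chromosome 5, 124570213 to 124579131, minus strand), was at 17.1, 17.2 and 18.1 FPKM in control libraries, against 15.5, 16.5 and 15.6 FPKM in cKO libraries. The groups did not overlap, and the log2 fold change was -0.13 (SE 0.05), with a p of 0.041 before and 0.264 after adjustment (limma). Eif2b3, the gamma subunit, had 16.8, 16.3 and 15.5 FPKM in control libraries, against 12.9, 13.4 and 16.4 FPKM in cKO libraries. Here cKO 1 and cKO 2 were low while cKO 3 lay within the control range, and the difference did not pass (log2 fold change -0.18, SE 0.09, limma adjusted p = 0.372). Without cKO 1 it was -0.12 and without cKO 3 it was -0.28. Eif2b5, the catalytic subunit, had 32.4 ± 1.31 and 32.2 ± 1.34 FPKM, and Eif2b2 was the 1 subunit gene above 0 (log2 fold change 0.07).

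The factors of start codon choice were close to the controls. Eif1, which guards against wrong start codons, had 239 ± 15.5 FPKM in control libraries, against 246 ± 5.25 FPKM in cKO libraries, with a log2 fold change of 0.04 (SE 0.07). Its relative Eif1b had 77.1, 76.5 and 76.5 FPKM in control libraries, against 71.2, 71.6 and 72.7 FPKM in cKO libraries. This was a tight separation in which every cKO value was lower, yet it did not pass (log2 fold change -0.09, SE 0.04, limma adjusted p = 0.311). Eif1ax, the X-linked gene of eIF1A, stood at 115 ± 9.47 and 109 ± 7.38 FPKM. Eif1ad, an eIF1A-like protein, was at 12.6 FPKM in cKO 1 and between 15.1 and 16.7 FPKM in the other 5 libraries. Its log2 fold change was -0.16 (SE 0.09), which was -0.057 without cKO 1 and -0.24 without cKO 3. Of the genes of subunit joining, Eif5b was at 14.7 ± 0.818 and 13.98 ± 0.308 FPKM, and Eif6, which holds back the large subunit, at 42.6 ± 1.49 and 43.3 ± 3.90 FPKM.

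eIF4F joins the cap-binding protein eIF4E, the scaffold eIF4G and the helicase eIF4A. Of its 10 tested genes, with the helper proteins of eIF4A counted in, 9 had log2 fold changes below 0 (median -0.05), Eif4g1 among them by a margin that rounds to 0. The scaffold gene Eif4g1 had equal means of 104.5 FPKM in both groups, and Eif4g3 had 51.2 and 51.8 FPKM. Eif4e itself had 51.7 ± 3.94 and 49.6 ± 3.54 FPKM. The helicase gene Eif4a1 had 472, 450 and 425 FPKM in control libraries, against 363, 407 and 428 FPKM in cKO libraries, where cKO 3 overlapped with control 3 (log2 fold change -0.17, SE 0.08, limma adjusted p = 0.354). Without cKO 1 the value for Eif4a1 was -0.10. Eif4a3, a relative of Eif4a1 that works in the exon junction complex rather than in initiation, was at 67.8 ± 2.28 and 61.2 ± 4.27 FPKM (log2 fold change -0.15, SE 0.06), and its log2 fold change was -0.096 without cKO 1.

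Eif4e3, an eIF4E relative that binds the cap in an unusual way (GRCm38 chromosome 6, 99625135 to 99666771, minus strand), had the smallest p of all factors. It lay at 7.78, 8.32 and 7.50 FPKM in control libraries, against 6.06, 6.43 and 6.78 FPKM in cKO libraries. All cKO libraries were below all controls, at 81.6% of the control mean. The log2 fold change was -0.26 (SE 0.07), with a p of 0.0065 before and 0.133 after adjustment (limma).

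The 4E-binding proteins hold eIF4E away from eIF4G until mTORC1, a growth-controlling kinase complex, phosphorylates them. Eif4ebp1 (GRCm38 chromosome 8, 27260329 to 27276674, plus strand) had the largest shift of the 54 factors on the log2(FPKM + 1) scale. It lay at 5.47, 6.20 and 4.95 FPKM in control libraries, against 4.30, 4.25 and 4.29 FPKM in cKO libraries, so that the cKO libraries were nearly identical and all below the controls. The log2 fold change was -0.31 (SE 0.08, 95% interval -0.50 to -0.11), with a p of 0.0077 before and 0.144 after adjustment (limma). With 0.1 FPKM added before the log in place of 1 it was -0.36. With 5 FPKM added it was -0.18, smaller than that of Eif2a (-0.19). Eif4ebp2, the form that prevails in brain and here at a far higher level, had 41.9, 41.9 and 36.3 FPKM in control libraries, against 37.3, 35.1 and 35.2 FPKM in cKO libraries, with control 3 inside the cKO range (log2 fold change -0.15, SE 0.07). Eif4ebp3 was at 7.30 ± 0.856 and 6.68 ± 0.261 FPKM, and its log2 fold change of -0.11 was -0.17 without control 1 and -0.026 without control 2. Eif4enif1, which carries eIF4E into the nucleus, was at 24.9 ± 1.85 and 23.6 ± 0.540 FPKM, and none of these passed.

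**Figure D3:**
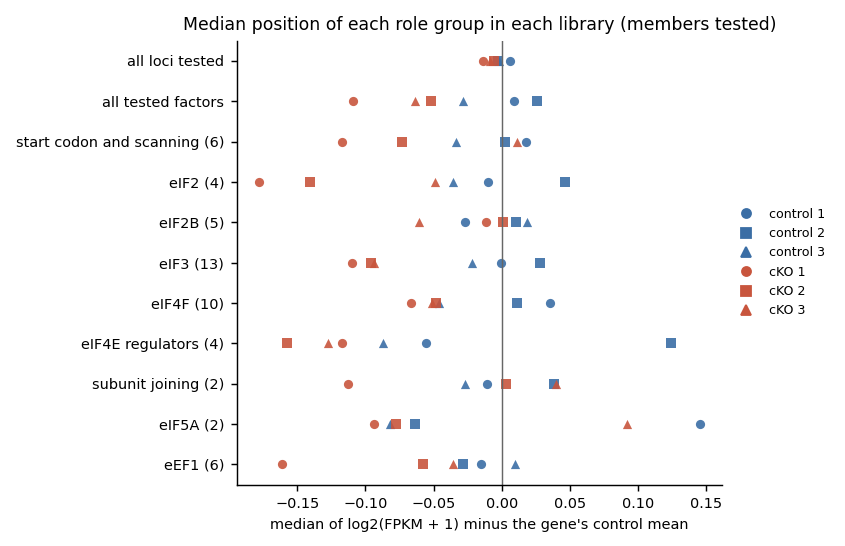
Median of log2(FPKM + 1) minus the control mean of each gene, per library, for all tested loci, all tested factors and each role group of more than 1 tested gene (number of genes in brackets). For eIF3 the cKO libraries lie at -0.11 to -0.094 and the controls at -0.022 to 0.028, while all tested loci stay near 0.

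Eef1a1 and Eef2 had the highest levels of the 55 genes. Eef1a1 (GRCm38 chromosome 9, 78478449 to 78489151, minus strand) had 3265, 3672 and 3398 FPKM in control libraries, against 2913, 3346 and 2971 FPKM in cKO libraries. The groups overlapped, since cKO 2 lay above control 1. Its log2 fold change of -0.16 (SE 0.12) had the widest interval of all factors, from -0.46 to 0.13. This SE depended on the fit: 0.094 with small RNA loci left out, 0.084 with a robust variance and 0.229 with no filter on level. Its coefficients of variation, 6.02% in control and 7.64% in cKO, were smaller than those of Eif4g3 (11.6 and 10.8%). Eef2, the translocase, was at 847 ± 39.1 and 829 ± 42.0 FPKM, a log2 fold change of -0.03 with an interval from -0.22 to 0.16.

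None of the genes of the exchange factor eEF1B passed. Eef1g, its scaffold subunit, had 358, 342 and 353 FPKM in control libraries, against 297, 319 and 339 FPKM in cKO libraries. All cKO values were lower, with cKO 3 next to control 2 (log2 fold change -0.14, SE 0.07, limma adjusted p = 0.344). Eef1b2 was at 156 ± 8.48 and 144 ± 10.3 FPKM, and Eef1d at 49.9 ± 0.619 and 47.8 ± 1.43 FPKM, both of them exchange subunits. Eef1e1, a member of the tRNA synthetase complex that shares the name, was at 57.3 ± 2.34 and 55.9 ± 2.38 FPKM.

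Eef1a2 (GRCm38 chromosome 2, 181147653 to 181157014, minus strand), the eEF1A of mature neurons and muscle, was the 1 eEF1 gene with a higher mean in cKO. It had 83.5, 83.6 and 90.4 FPKM in control libraries, against 101, 91.3 and 98.3 FPKM in cKO libraries. Every cKO value was above every control value, by a narrow margin between control 3 and cKO 2. The log2 fold change was 0.17 (SE 0.06), with a p of 0.025 before and 0.222 after adjustment (limma).

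The balance of 3 pairs of close relatives was then compared in each library. Eef1a2 stood at 2.56, 2.28 and 2.66% of Eef1a1 in controls 1 to 3 and at 3.48, 2.73 and 3.31% in cKO 1 to 3. Eif4a2, the eIF4A form enriched in brain, stood at 36.1, 36.9 and 38.3% of Eif4a1 in the controls and at 44.1, 41.9 and 38.6% in cKO. Eif5a2 stood at 1.75, 1.58 and 1.605% of Eif5a in the controls and at 1.81, 1.79 and 1.80% in cKO. In all 3 pairs the share of the minor gene was higher in every cKO library than in every control. The ratios differed by 1.26, 1.12 and 1.09 times on the log2(FPKM + 1) scale. By exact permutation, two-sided, p was 0.1 for each, and 0.1 after adjustment over the 3 pairs, which is the smallest p that 3 libraries against 3 allow. Eif4a2 itself was at 166 ± 3.80 and 165 ± 5.11 FPKM. Eif5a2 was at 6.09 ± 0.773 and 6.26 ± 0.495 FPKM, and Eif5a at 370 ± 26.1 and 347 ± 27.0 FPKM. The deposited table does not say how fragments that fit both relatives, or their processed pseudogenes, were shared out, so levels of such pairs are uncertain.

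**Figure D4:**
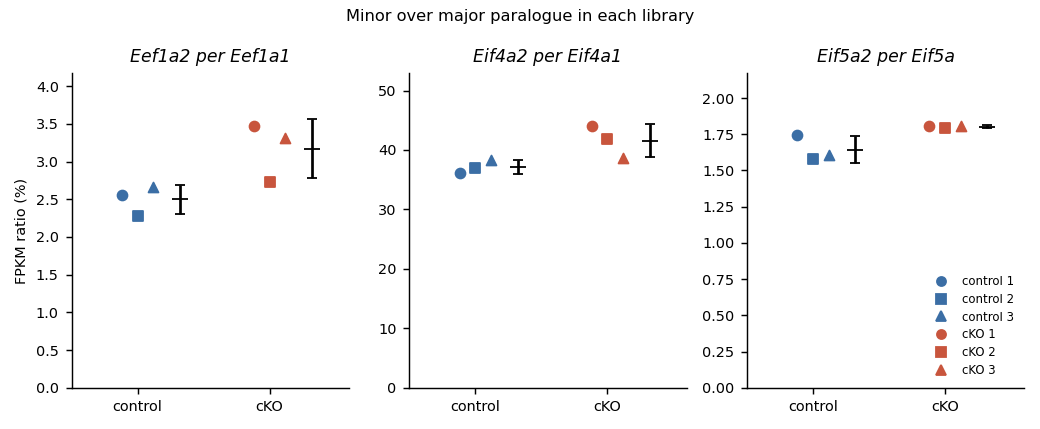
FPKM of the less abundant gene as a percentage of its more abundant relative in each library, for 3 pairs. Bars give mean and SD of 3 libraries. In each pair the 3 cKO points lie above the 3 control points, by a small margin for Eif4a2 (38.6 against 38.3%).

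Messenger RNAs of many elongation factors and of some eIF3 subunits are known as TOP messages: they begin with a C and a run of pyrimidines, through which mTORC1 controls their translation. All 9 genes of this kind on the list (Eef1a1, Eef1b2, Eef1d, Eef1g, Eef2, Eif3e, Eif3f, Eif3h and Eif4b) had log2 fold changes below 0, with a median of -0.12. The other 45 had a median of -0.08, and 39 of them were below 0 as well. Of the 55 genes, 42 were found in a RefSeq table of promoters (GRCm38.p6), with 54 starts in all. The 30 bases around the start, 15 before and 15 from the start on, were searched on the transcribed strand for a C followed by at least 4 bases that are C or T. Such a run was in 29.6% of the factor starts and in 36.4% of the 32851 starts in the table. The table held 5 of the 9 TOP genes, and 3 of these 5 had a run, shown in capitals in the following 30-base windows. They are shown because the start of the message is what defines this class.
Eif3f, chr7:108934400-108934429, plus strand: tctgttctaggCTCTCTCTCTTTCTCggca
Eef1a1, chr9:78481710-78481739, minus strand: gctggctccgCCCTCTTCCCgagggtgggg
Eif4b, chr15:102073758-102073787, plus strand: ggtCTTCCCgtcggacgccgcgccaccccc
Eef1b2, chr1:63176816-63176845, plus strand: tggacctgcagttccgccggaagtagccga
Eef2, chr10:81176616-81176645, plus strand: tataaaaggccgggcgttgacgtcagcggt
Among these 5 the longest run, 15 bases in Eif3f, spans the annotated start, as does the run in Eef1a1. The run in Eif4b begins at position -12 and ends before the annotated start, so by this annotation it is not in the message. Among all 54 factor starts the longest inside the window was one of 19 bases in Eif2b5, which is not on the TOP list. It begins at the first base of the window, so it may be longer, and most of it lies before the annotated start. An annotated start need not be the base at which most messages begin in this tissue.

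Genes of translation factors are also known targets of MYC proteins, which bind the E-box CACGTG, a motif that reads the same on both strands. From 250 bases before to 50 after each start, 13 of the 54 factor starts (24.1%), belonging to 11 genes, held CACGTG, as did 7.15% of all starts in the table. These starts were not matched to the others in base composition. The 11 genes had a median log2 fold change of -0.09 and the 31 without the motif one of -0.07. The motif, in capitals, is shown for 2 subunits of eIF3 and 2 of eIF4F, the complexes described above.
Eif3a, chr19:60790654-60790683, minus strand: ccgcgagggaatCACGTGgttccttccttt
Eif3k, chr7:28981915-28981944, minus strand: ctggaaggaaatCACGTGgtagacaaaaaa
Eif4a1, chr11:69672595-69672624, minus strand: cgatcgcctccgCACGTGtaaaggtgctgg
Eif4g1, chr16:20672661-20672690, plus strand: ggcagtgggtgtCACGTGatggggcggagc
A match describes the letters in the window and does not show that a factor binds there.

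Other genes that act on these factors were taken from lists of kinases, mTORC1 components, poly(A)-binding, termination and recycling factors. Of 44 such genes 43 were tested, none passed (limma), and 3 had a p under 0.05 before adjustment, which is 6.98% against 17.6% of all tested loci. Their median log2 fold change was -0.05, with 29 of 43 below 0. Ddit4, an inhibitor of mTORC1 that is induced by stress, lay at 44.5, 37.3 and 45.0 FPKM in control libraries, against 63.1, 55.9 and 47.0 FPKM in cKO libraries. All cKO values were higher, with cKO 3 close to the controls (log2 fold change 0.38, SE 0.12, limma adjusted p = 0.196). Cyfip2, a partner of the translational repressor FMRP, was at 46.9 FPKM in control libraries, against 52.3 FPKM in cKO libraries (log2 fold change 0.16, limma adjusted p = 0.241). Eefsec, the elongation factor for selenocysteine, was at 8.27 and 7.34 FPKM (log2 fold change -0.15, limma adjusted p = 0.277).

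Mtor was at 17.7 and 18.03 FPKM and Eef2k, which phosphorylates and stops eEF2, at 13.96 and 14.1 FPKM in control and cKO. Of 8 genes around eIF2 phosphorylation 5 were below 0 and none had a p under 0.05 before adjustment (limma). Atf4, a transcription factor whose translation rises when eIF2 is phosphorylated, was at 110, 123 and 121 FPKM in control libraries, against 97.5, 105 and 114 FPKM in cKO libraries, where cKO 3 overlapped with control 1. Ddit3, a stress-induced transcription factor, was at 14.2 and 16.6 FPKM (log2 fold change 0.22, SE 0.11). Tpt1, another TOP message, was at 1670, 1658 and 1564 FPKM in control libraries, against 1359, 1511 and 1522 FPKM in cKO libraries. All its cKO values lay below all controls (log2 fold change -0.16, SE 0.09, limma adjusted p = 0.440).

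The other genes of smallest p in these lists did not pass either (limma). Ppp1r15b, a subunit of the phosphatase that restores eIF2, was at 16.7 FPKM in control and 14.9 FPKM in cKO libraries (log2 fold change -0.16). Mlst8, a subunit of the mTOR complexes, was at 13.8 and 12.6 FPKM, and Rps6kb1, a kinase downstream of mTORC1, at 14.8 and 13.8 FPKM. Pdcd4, an inhibitor of eIF4A, was at 30.04 and 33.9 FPKM (log2 fold change 0.17). Of the MNK kinases, which phosphorylate eIF4E, Mknk2 was at 34.2 and 37.0 FPKM without overlap between the groups, and Mknk1 at 8.36 and 7.67 FPKM. The poly(A)-binding protein gene Pabpc1 was at 159 and 150 FPKM, and those of its interacting proteins Paip2 and Paip2b at 92.2 and 87.5 FPKM and at 40.5 and 39.5 FPKM. Abce1, the ribosome recycling factor, was at 35.1, 32.9 and 34.7 FPKM in control libraries, against 32.6, 30.04 and 31.9 FPKM in cKO libraries. Its groups did not overlap, by a margin of under 1 FPKM (log2 fold change -0.12, limma adjusted p = 0.316). Denr, a recycling factor as well, was at 28.05 and 25.97 FPKM, and Etf1, the release factor that reads stop codons, at 32.3 and 30.4 FPKM.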

How the data were processed

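CASAVA, TopHat, Cufflinks and build mm10 are named in the submitters' processing notes, and the authors deposited 1 value per locus and library. No label names the unit; the deposited values were taken to be FPKM because Cufflinks is named and the locus names have its form. Depth, versions, annotation, strand and scaling are not given in the sources. Steps of values under 0.1 FPKM matched in 7 of 15 pairs of libraries (24.2 to 32.9% of loci in a window of 0.06 log2 units, against 7.35 to 8.90% in the other 8). This gave 2 sets, called processing sets here: control 1 with cKO 3, and the other 4 libraries. No label names such sets, and what they reflect was not tested. They do not follow the deposits, since control 3 and cKO 3, which were deposited later, fall in different sets. FPKM keeps no counts, so depth limits low values by an unknown amount.

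Groups and replicate numbers follow the titles. The description of cKO 1 carries another number. Values were taken as log2(FPKM + 1), loci were kept where 3 or more libraries reached 1 FPKM, and limma 3.58.1 was fitted to all of them (R 4.3.3, variance trend, moderated two-sided test, Benjamini-Hochberg, threshold 0.05). The fit was tested on simulated data. The simulated shifts were all larger than the difference of any factor here, so that test does not cover differences of this size. A log2 fold change is the cKO mean less the control mean. Ratios of relatives were compared by exact permutation (scipy 1.17.1). By rule, the text names in each role group the gene with the highest mean, the largest shift and any unadjusted p of at most 0.05, the 3 pairs, the 4E-binding proteins, and up to 3 genes of smallest p per pathway list. All other factors named with values, such as Eif1b, Eif3a and Eef1g, and Mtor were picked after their values were seen. Members, lists and tests were chosen with earlier results of these data known. Coordinates are from GENCODE M21 (GRCm38). Alternatives are given at the end. Figures were made with matplotlib 3.10.9.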

Additional observations from a re-analysis of the deposited data

How the results depend on the processing

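No factor gene passed under any of 20 alternatives, with a smallest adjusted p between 0.108 and 0.371 (limma), although the number of loci called over the whole table ranged from 15 to 336. The median log2 fold change of the factors lay between -0.0958 and -0.0595, and 43 to 49 factors were below 0. Some alternatives could not change a fold change, since each replicate number, deposit and processing set holds as many control as cKO libraries. These blocks and a robust variance alter only the p-values. Other scalings gave -0.060 (equal medians) and -0.068 (quantile normalization), each with 43 below 0. Within the second processing set alone the median was -0.093, and in the first deposit alone -0.096. With 1 library left out it was -0.087 to -0.062. The medians of small groups were less steady: with 1 library left out, that of eIF2B ranged from -0.084 to -0.0055, of eIF5A from -0.086 to 0.046, of subunit joining from -0.055 to 0.021, of the eIF4E regulators from -0.17 to -0.073, of eIF4F from -0.078 to -0.038, of eIF2 from -0.16 to -0.082, of eEF1 from -0.11 to -0.066, of start codon factors from -0.088 to -0.036 and of eIF3 from -0.13 to -0.082. The 3 ratios kept their direction in all 11 alternatives each.

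No label says that libraries of equal replicate number share a litter, day or batch. Their deviations from the group means correlated at r = -0.027, 0.037 and 0.049, and not every library correlated best with its own number. With so few libraries this check cannot exclude a pairing. With the replicate number as a block 15 loci passed in place of 78, and 0 factors. Each replicate number holds a control and a cKO library, so the block cannot change a difference between group means. The median of the factors was therefore -0.084 and the ratios differed by 0.34, 0.16 and 0.13 log2 units, as without the block.

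Some single genes near 0 changed sign, none of them called, and the cause was not tested. In the first deposit alone log2 fold changes were 0.033 for Eif2b5, -0.064 for Eif5a2, -0.020 for Eif1 and -0.058 for Eif6. With equal medians they were 0.014 for Eif2s2, 0.019 for Eif2b5 and 0.014 for Eif4a2. With quantile normalization they were 0.061 for Eef2, 0.012 for Eif2b5 and 0.022 for Eif4a2. In the second processing set alone they were 0.0063 for Eif4a2 and -0.0091 for Eif6. With 1 library left out they ranged from -0.065 to 0.0080 for Eef2, -0.039 to 0.030 for Eif2s2, -0.038 to 0.023 for Eif2b5, -0.033 to 0.012 for Eif4a2, -0.019 to 0.13 for Eif5a2, -0.0026 to 0.091 for Eif1 and -0.034 to 0.091 for Eif6.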
